A study of Mus musculus with 39 samples.

Results

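The alveolar type 1 cell genes described here were 10 genes of the mouse lung, Ager, Hopx, Aqp5, Pdpn, Emp2, Rtkn2, Clic5, Akap5, Vegfa and Gprc5a. They were taken by name, with earlier results of these data known, from the 55357 genes of a lung expression table. All 10 were among the 15978 lung genes with enough expression to be tested. The table held 20 lung libraries of C57BL/6N mice, 5 in each of 4 groups. The groups were Cd177 knock-out (KO) mice with acute pancreatitis (AP), in which the inflamed pancreas can lead to injury of the lung, KO mice of the sham group, wild-type (WT) mice with AP, and WT mice of the sham group. A colon table of the same design, with 19 libraries, served as the outgroup. How the pancreatitis was induced and how long it lasted, and the allele of the knock-out, are not stated by the sources used here.

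Alveolar type 1 cells are the thin, wide epithelial cells that cover most of the gas exchange surface of the lung, where their flat sheets share a basement membrane with the capillaries. In the adult lung they can arise from alveolar type 2 cells, the cuboidal cells that make surfactant. After injury, type 2 cells pass through a keratin-rich transitional state before they flatten. Type 1 cells also signal to the capillary bed, since they are a main source of the endothelial growth factor made from Vegfa. Most of the genes named here are enriched in these cells, but none is exclusive to them: Vegfa, Hopx, Pdpn and Gprc5a are also known from other cells of the lung.

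Each library was given as FPKM, fragments scaled to gene length and library size, a level that can be compared between genes. Totals recovered from the steps of the values ran from 77.0 to 95.4 M reads in KO lungs and from 57.9 to 71.2 M reads in WT lungs (M, mega), so that every KO lung was sequenced more deeply than every WT lung. Depth and genotype cannot be told apart in this design. Cd177 itself, the deleted gene of a neutrophil surface protein, was listed at 0 in all 10 KO lungs. It averaged 3.19 ± 0.926 FPKM in WT lungs with AP and 2.01 ± 0.926 FPKM in WT sham lungs (SD, n = 5 each), and an exact two-sided permutation test gave p = 0.00794 for KO against WT under either treatment, the smallest this design allows. Correlations of a library with its own group were 0.929 to 0.962 in KO and 0.968 to 0.988 in WT. The labels do not say that libraries are from separate animals, so p-values measure the spread between libraries.

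All 10 genes were expressed in the lung libraries. In WT sham lungs the order of mean levels was Ager (1229 FPKM), Hopx (596), Emp2 (365), Vegfa (309.7), Gprc5a (243), Clic5 (159), Aqp5 (118), Rtkn2 (87.0), Pdpn (70.4) and Akap5 (53.3). Between neighbours in this order the 5 libraries overlapped for Emp2 and Vegfa, for Clic5 and Aqp5 and for Rtkn2 and Pdpn, and did not overlap for the other pairs. Ager, the gene of the receptor RAGE, was at 1232, 1140.0, 1237, 1102 and 1434 FPKM in WT sham lungs and at 1.06, 0.312, 1.25, 1.45 and 0.951 FPKM in WT sham colons. Aqp5, Rtkn2 and Akap5 averaged 0.0284, 0.0652 and 0.0813 FPKM in WT sham colons and were too low to be tested there. The other members were present in colon, with Gprc5a, a retinoic acid-inducible receptor of many epithelia, at a mean of 167 FPKM, Clic5 at 53.9 FPKM, Vegfa at 28.9 FPKM, Emp2 at 24.7 FPKM, Hopx at 23.8 FPKM and Pdpn at 6.26 FPKM. The lung and colon tables were made separately, so these levels stand side by side without a test.

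**Figure D1:**
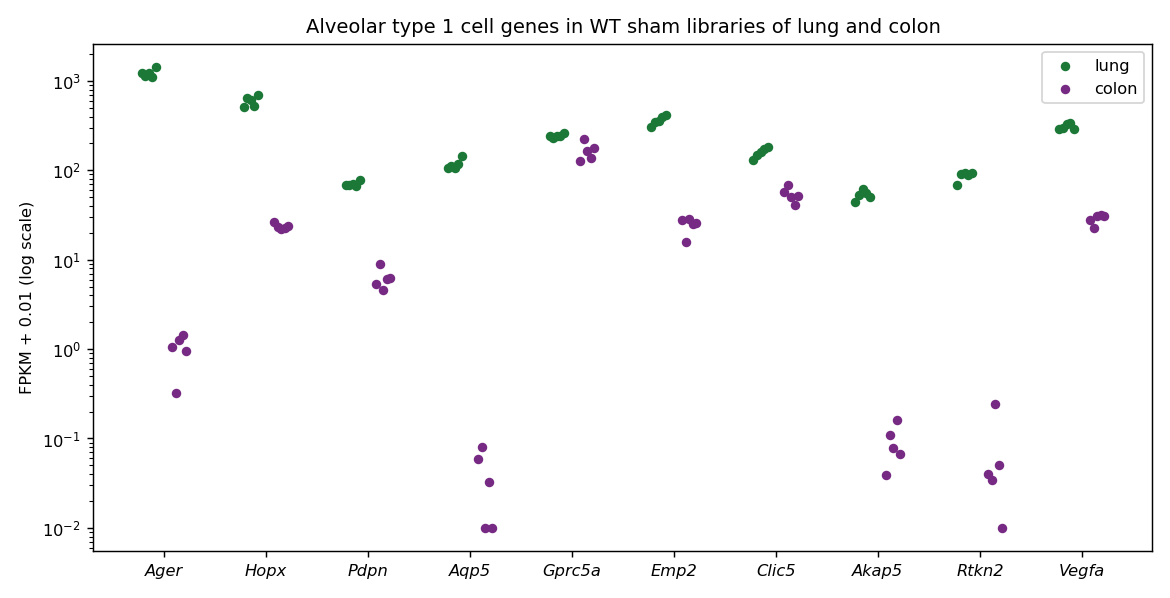
FPKM of the 10 genes in the 5 WT sham libraries of lung (left of each pair, green) and of colon (right, purple), on a log axis after adding 0.01, with 1 point per library. Ager, Aqp5, Akap5 and Rtkn2 lay farthest apart between the tissues, and Gprc5a, with means of 243 FPKM in lung and 167 FPKM in colon, lay closest.

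KO lungs differed from WT lungs in most of these genes, and the differences did not run one way. With AP, 7 of the 10 changed: Emp2, Clic5, Akap5, Rtkn2, Vegfa and Pdpn were lower in KO and Aqp5 was higher. After sham treatment 6 of the 10 changed, with Emp2, Clic5, Akap5, Rtkn2 and Vegfa lower in KO and Aqp5 higher. A gene was counted as changed at an adjusted p under 0.05 in limma's test on log2(FPKM + 1), adjusted over all genes tested. Of all lung genes 55.8% changed between KO and WT with AP and 58.8% after sham treatment, so the count of changed members is near the background. By direction, 1 member was higher and 6 were lower with AP, where 27.6% of all genes were higher and 28.1% lower. After sham treatment 1 was higher and 5 were lower, where 28.8% of all genes were higher and 30% lower. The median log2 difference of the members was -0.73 with AP, beside 0.00 for all genes, and -0.44 after sham treatment, beside -0.01. When FPKM were rescaled to TPM, which gives each library the same sum, the median of all genes moved to -0.18 with AP and -0.26 after sham treatment. The split of all genes then became 18.6% higher and 34.4% lower with AP, and 18.1% higher and 38.9% lower after sham treatment. In whole lung, fewer type 1 cells and less of an RNA in each cell cannot be told apart.

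**Figure D2:**
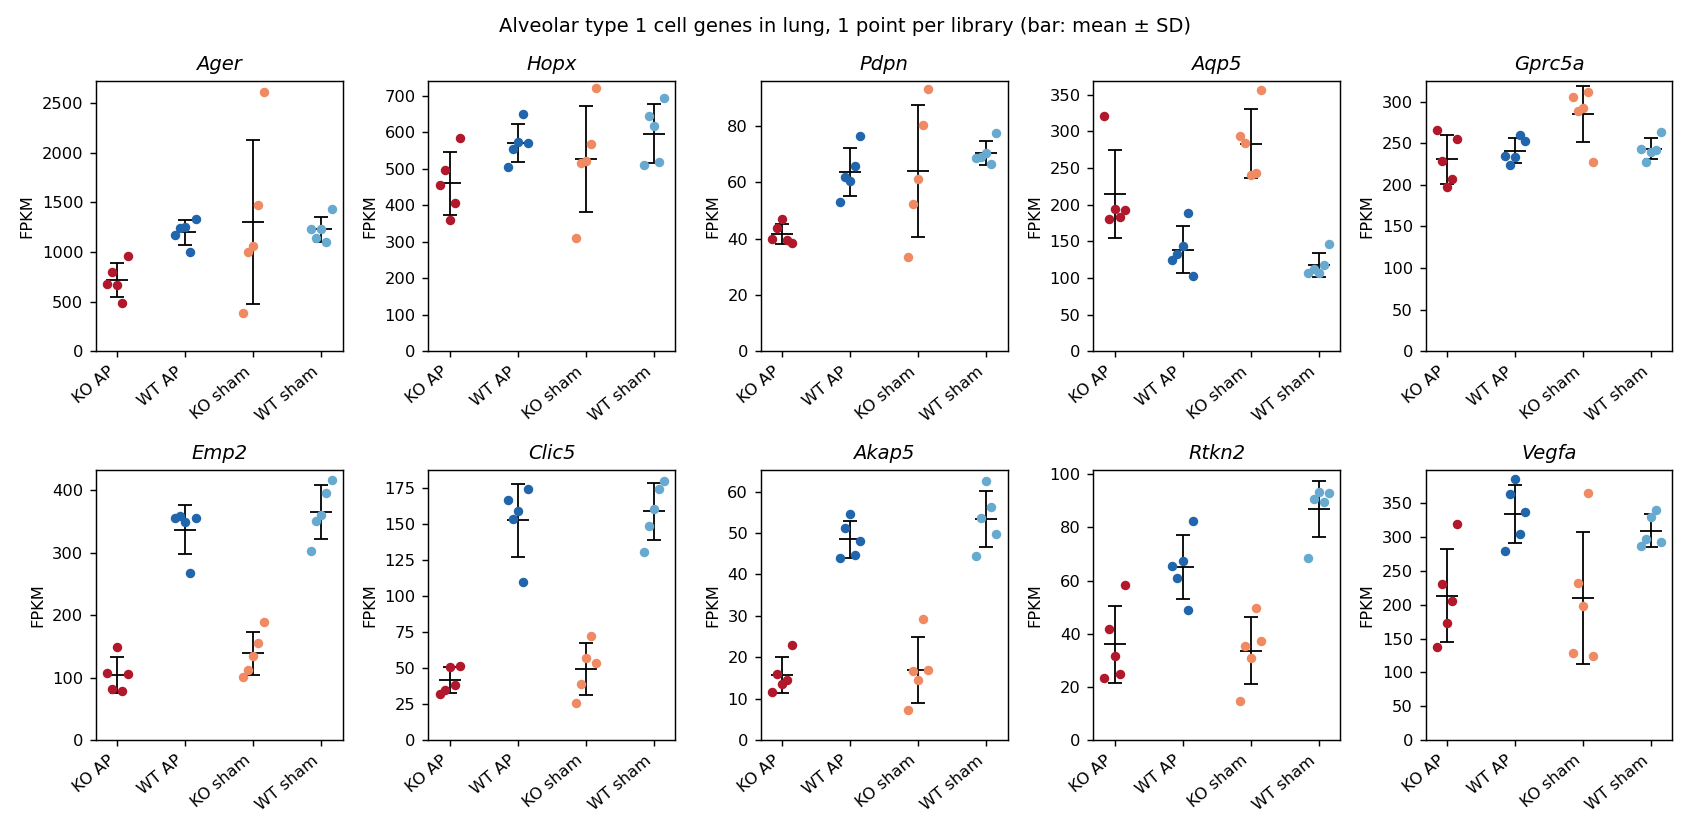
FPKM of each gene in the lung libraries (1 point each, 5 per group) with the group mean and SD as black bars, for KO AP, WT AP, KO sham and WT sham from left to right. Emp2, Clic5 and Akap5 did not overlap between KO and WT under either treatment, and Aqp5 had its highest values in KO.

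**Figure D3:**
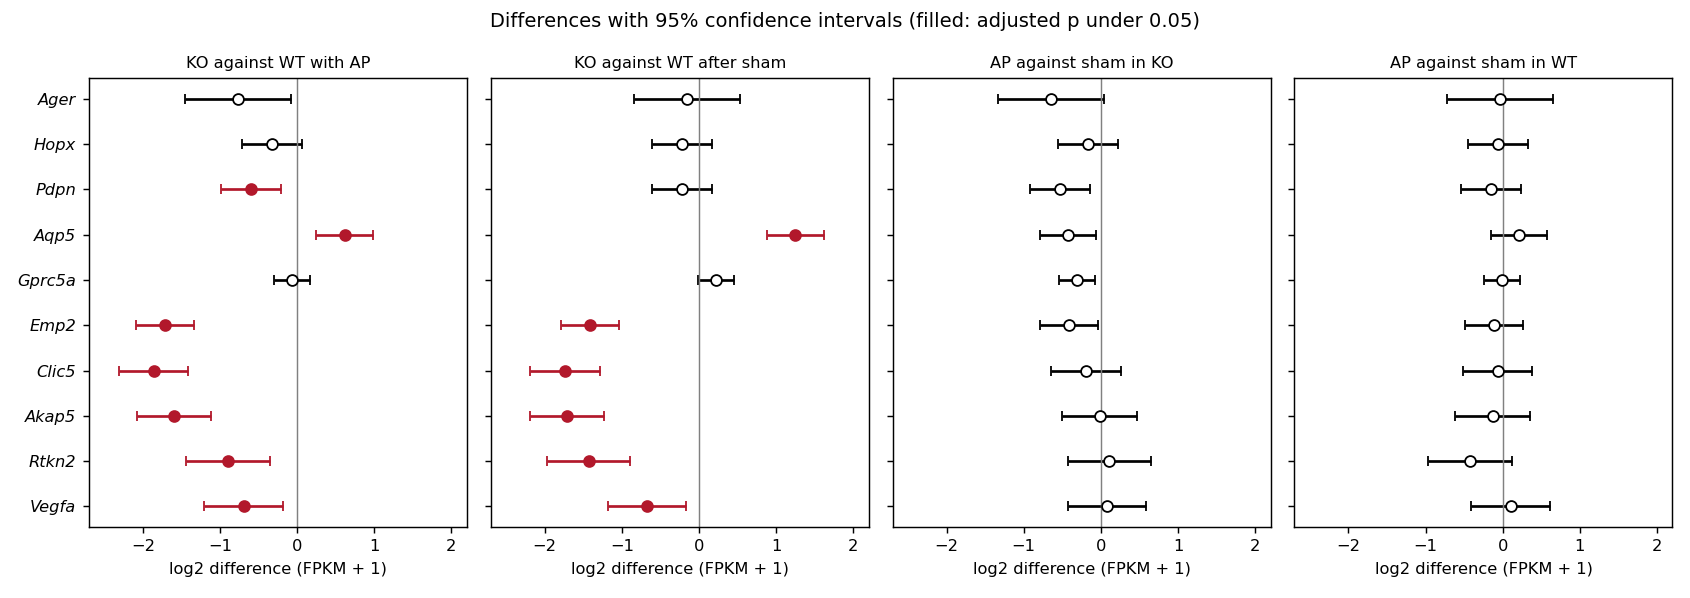
Log2 differences of the 10 genes on the log2(FPKM + 1) scale, with 95% confidence intervals from limma, in 4 comparisons of lung groups. Filled points have an adjusted p under 0.05, which holds for 7 genes in KO against WT with AP, for 6 in KO against WT after sham treatment and for none in AP against sham within a genotype.

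With AP the largest differences were those of Emp2, Clic5 and Akap5, and after sham treatment Rtkn2 reached the size of Emp2. Emp2, which encodes a tetraspan membrane protein abundant in type 1 cells, was at 107, 81.2, 149, 78.2 and 106 FPKM in KO lungs with AP, against 354, 358, 349, 267 and 355 FPKM in WT lungs with AP. After sham treatment it was at 101, 113, 135, 155 and 189 FPKM in KO lungs, against 303, 351, 360.3, 395 and 415 FPKM in WT lungs. All 10 KO libraries lay below all 10 WT libraries. The log2 difference of Emp2 was -1.71 ± 0.18 with AP (SE, limma adjusted p = 9.03e-07) and -1.42 ± 0.18 after sham treatment (limma adjusted p = 3.17e-06).

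Clic5, an intracellular chloride channel family protein tied to the actin cytoskeleton, was at 32.0, 34.9, 50.9, 38.6 and 51.5 FPKM in KO lungs with AP, against 167, 154, 159, 109.7 and 174 FPKM in WT lungs with AP. Among sham lungs it was at 25.5, 39.0, 57.4, 72.6 and 53.8 FPKM in KO lungs, against 131, 149, 161, 175 and 180.3 FPKM in WT lungs. KO and WT libraries did not overlap, and the lowest value of all belonged to KO sham library 1. Its log2 difference was -1.86 ± 0.22 with AP (limma adjusted p = 2.33e-06) and -1.74 ± 0.22 after sham treatment (limma adjusted p = 2.72e-06). Among the differences of all 15978 genes the value with AP lay at percentile 1.03.

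Akap5, a scaffold that holds protein kinase A at the membrane, was at 11.6, 16.1, 13.5, 14.6 and 22.9 FPKM in KO lungs with AP, against 43.9, 51.3, 54.6, 44.7 and 48.0 FPKM in WT lungs with AP. In the sham groups it was at 7.30, 16.7, 14.5, 29.3 and 16.8 FPKM in KO lungs, against 44.5, 53.6, 62.5, 56.3 and 49.8 FPKM in WT lungs. Again no KO library reached a WT library. The log2 difference was -1.60 ± 0.23 with AP (limma adjusted p = 1.79e-05) and -1.71 ± 0.23 after sham treatment (limma adjusted p = 6.43e-06). Emp2, Clic5 and Akap5 passed the threshold in both comparisons under every alternative that was run, left-out libraries included.

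The upstream sequences of these 3 genes are shown because the genes moved together, and that of Pdpn because it holds a motif these 3 lack. Each is the 250 bases before a RefSeq gene start in GRCm38.p6, read 5′ to 3′ on the gene's strand, at chr16:10313969-10314218 (minus) for Emp2, chr17:44188322-44188571 (plus) for Clic5, chr12:76324641-76324890 (plus) for Akap5 and chr4:143299565-143299814 (minus) for Pdpn. None of the 4 windows overlaps an annotated exon. Capitals mark the GC box GGGCGG, bound by Sp1, or its complement CCGCCC in the first 3, and in Pdpn the hypoxia response core ACGTG, which is read on both strands of the palindrome CACGTG.
Emp2: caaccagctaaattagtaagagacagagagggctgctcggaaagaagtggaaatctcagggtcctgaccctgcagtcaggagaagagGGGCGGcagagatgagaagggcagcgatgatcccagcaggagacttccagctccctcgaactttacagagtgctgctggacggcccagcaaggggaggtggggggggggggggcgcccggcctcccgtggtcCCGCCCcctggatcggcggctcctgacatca
Clic5: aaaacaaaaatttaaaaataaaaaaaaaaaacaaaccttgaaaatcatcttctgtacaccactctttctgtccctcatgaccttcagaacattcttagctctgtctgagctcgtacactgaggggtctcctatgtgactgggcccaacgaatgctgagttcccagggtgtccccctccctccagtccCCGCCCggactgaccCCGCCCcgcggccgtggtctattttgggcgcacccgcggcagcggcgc
Akap5: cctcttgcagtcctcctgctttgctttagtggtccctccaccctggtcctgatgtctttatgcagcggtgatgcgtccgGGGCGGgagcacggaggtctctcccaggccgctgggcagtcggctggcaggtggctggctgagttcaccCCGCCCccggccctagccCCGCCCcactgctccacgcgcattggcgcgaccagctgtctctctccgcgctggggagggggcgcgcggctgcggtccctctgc
Pdpn: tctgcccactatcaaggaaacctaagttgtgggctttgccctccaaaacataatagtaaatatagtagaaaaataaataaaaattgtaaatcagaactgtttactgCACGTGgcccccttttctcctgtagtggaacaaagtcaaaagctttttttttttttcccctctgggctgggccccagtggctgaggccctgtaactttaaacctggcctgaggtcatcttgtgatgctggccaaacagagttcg
Emp2 and Clic5 each held 2 GC boxes and Akap5 held 3, a motif present in 32.7% of 32851 promoter windows of this length. Aqp5, which was higher in KO, also held 2, Vegfa held 1 or 2 depending on the start, and Ager, Hopx and Pdpn held none. Neither GGAATG, the core read by TEAD factors (12.6% of windows), nor CAAGTG, the core read by NKX2-1 (11.6%), was found on either strand in any window of the 8 members that had one. ACGTG, found in 16.6% of windows, was absent from Emp2, Clic5, Akap5 and Ager, and present in Pdpn, Aqp5, both starts of Hopx and 1 of 2 starts of Vegfa. Neither motif separated the members that were lower in KO from Aqp5. Which start the lung uses is not known from these data, and a match or its absence describes these letters only.

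Rtkn2 and Vegfa were also lower in KO under both treatments, with more spread. Rtkn2, used as a marker of type 1 cells, was at 23.5, 42.0, 31.6, 24.8 and 58.5 FPKM in KO lungs with AP, against 65.6, 60.9, 67.3, 48.9 and 82.3 FPKM in WT lungs with AP. Among sham lungs it was at 14.9, 35.6, 31.0, 49.5 and 37.3 FPKM in KO lungs, against 68.4, 90.7, 93.5, 89.6 and 93.0 FPKM in WT lungs. The groups overlapped with AP, where 1 KO library reached 58.5 FPKM, and did not overlap after sham treatment. The log2 difference of Rtkn2 was -0.89 ± 0.26 with AP (limma adjusted p = 0.00671) and -1.43 ± 0.26 after sham treatment (limma adjusted p = 1.22e-04). Rtkn2 shares 216 exon bases with Gm16212 on the opposite strand, and whether the libraries keep strand is not given in the sources used here.

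Vegfa was at 138, 231, 173, 206 and 319 FPKM in KO lungs with AP, against 279, 364, 386, 305 and 338 FPKM in WT lungs with AP. In the sham groups it was at 129, 233, 198, 365 and 125 FPKM in KO lungs, against 288, 297, 331, 340.3 and 293 FPKM in WT lungs. In each treatment 1 KO library lay within or above the WT range while the other 4 lay below it. The log2 difference was -0.70 ± 0.24 with AP (limma adjusted p = 0.0211) and -0.67 ± 0.24 after sham treatment (limma adjusted p = 0.0238). The call with AP was lost without KO AP library 1 (adjusted p = 0.0693), and the call after sham treatment was lost without KO sham library 1 (0.0752), KO sham library 5 (0.0735) or WT sham library 4 (0.0501), and without a filter on low values (0.0548). Libraries are numbered here as in the labels.

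Aqp5, the water channel of the apical type 1 membrane, ran the other way. It was at 321, 179.9, 194, 184 and 193 FPKM in KO lungs with AP, against 125, 133, 144, 189 and 103 FPKM in WT lungs with AP. After sham treatment it was at 293, 285, 239.9, 243 and 356 FPKM in KO lungs, against 106, 113, 107, 118 and 147 FPKM in WT lungs. With AP the top WT library, at 189 FPKM, lay within the KO range, while after sham treatment the lowest KO library lay above the highest WT library. The log2 difference of Aqp5 was 0.61 ± 0.17 with AP (limma adjusted p = 0.00580) and 1.25 ± 0.17 after sham treatment (limma adjusted p = 8.80e-06). Airway glands and some airway cells also express Aqp5, and the summed level of 10 club and ciliated cell genes ranged from 26620 to 139700 FPKM in KO lungs with AP and from 48790 to 89230 FPKM in WT lungs with AP. After sham treatment the sum ranged from 28250 to 78120 FPKM in KO and from 45630 to 70120 FPKM in WT. Single genes of low level weigh little in this sum. Of the 10 genes 5 were higher and 1 lower in KO with AP, and 2 higher and 3 lower after sham treatment. Among them Foxj1 ranged from 72.8 to 113 FPKM in KO lungs with AP, against 38.1 to 51.6 FPKM in WT lungs with AP. After sham treatment Foxj1 overlapped, at 25.1 to 149 FPKM in KO and 39.9 to 50.7 FPKM in WT. Muc5b went the other way, with means of 5.04 FPKM in KO and 10.6 FPKM in WT with AP. Its means after sham treatment were 1.68 FPKM in KO and 8.19 FPKM in WT. Of all lung genes 55.8% changed with AP and 58.8% after sham treatment. The part of these cells in the Aqp5 difference was not tested.

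Of the other 4 members, Pdpn changed with AP, and none of the 4 passed after sham treatment. Pdpn, the mucin-like membrane protein podoplanin, was at 39.8, 43.6, 46.9, 39.6 and 38.3 FPKM in KO lungs with AP, against 53.1, 62.0, 60.5, 65.9 and 76.6 FPKM in WT lungs with AP. These groups did not overlap, and the SD of the KO libraries was 3.56 FPKM. After sham treatment Pdpn was at 33.5, 52.2, 61.3, 80.2 and 93.0 FPKM in KO lungs, against 68.7, 68.9, 70.3, 66.4 and 77.6 FPKM in WT lungs. The KO sham libraries lay on both sides of the WT sham range. The log2 difference was -0.59 ± 0.19 with AP (limma adjusted p = 0.0108) and -0.22 ± 0.19 after sham treatment (limma adjusted p = 0.328), and the difference between these 2 values did not pass either (-0.38 ± 0.26, limma adjusted p = 0.655). On the TPM scale the sham value was -0.49 and passed (0.0203). Pdpn is also made by lymphatic endothelium, and the summed level of 7 lymphatic genes, Pdpn among them, ranged from 104 to 134 FPKM in KO lungs with AP and from 264 to 411 FPKM in WT lungs with AP. Lyve1 weighed most in this gap, with means of 29.9 FPKM in KO and 224 FPKM in WT. After sham treatment the sums overlapped, at 117 to 481 FPKM in KO and 345 to 623 FPKM in WT. The part of lymphatic vessels in the Pdpn difference was not tested.

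Ager was at 682, 795, 668, 484 and 957 FPKM in KO lungs with AP, against 1169, 1241, 1252, 996 and 1330.3 FPKM in WT lungs with AP. The highest KO library lay just below the lowest WT library, so the groups did not overlap. The log2 difference was -0.77 ± 0.33 with a 95% interval of -1.45 to -0.08, and its limma adjusted p of 0.0536 missed the threshold. In the fit that pools all 4 groups, the spread of the KO sham lungs enters this error: Ager was there at 385, 1004, 1063, 1469.9 and 2611 FPKM, against 1232, 1140.0, 1237, 1102 and 1434 FPKM in WT sham lungs. The KO sham lungs held both the lowest and the highest Ager value of all 20 libraries. When only the groups with AP were fitted the same difference had an adjusted p of 0.00437, and without KO sham library 1, KO sham library 5 or KO AP library 5 it was 0.00794, 0.0168 or 0.0402. It also passed on the TPM scale (0.0117), after upper quartile scaling (0.0401), with a variance for each group (0.0142) and with the replicate block (0.0408). After sham treatment the log2 difference of Ager was -0.16 ± 0.33 (limma adjusted p = 0.693), and it became 0.22 without KO sham library 1.

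Hopx, a homeodomain-only cofactor of type 1 cells that is also strong in heart muscle, was at 457, 496, 359, 407 and 583 FPKM in KO lungs with AP, against 505, 553, 572, 650.0 and 571 FPKM in WT lungs with AP. In the sham groups it was at 311, 515, 521, 567 and 719.6 FPKM in KO lungs, against 509.5, 644, 616, 519 and 693 FPKM in WT lungs. The groups overlapped under both treatments. The log2 difference of Hopx was -0.32 ± 0.19 with AP (limma adjusted p = 0.144) and -0.22 ± 0.19 after sham treatment (limma adjusted p = 0.322), and on the TPM scale it was -0.53 (0.0144) and -0.50 (0.0187). Hopx shares 412 exon bases with Hopxos on the opposite strand. Summed heart muscle genes, Hopx among them, reached 3655 FPKM in 1 KO lung with AP. The highest value in WT lungs with AP was 1125 FPKM, and the medians were 784 FPKM in KO and 898.5 FPKM in WT. Hopx itself had medians of 457 FPKM in KO and 571 FPKM in WT lungs with AP. The medians of the sum therefore do not measure heart muscle apart from Hopx.

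Gprc5a varied least of the 10 genes, with a coefficient of variation of 12.4% over the 20 lung libraries. It was at 266, 229, 197, 207 and 255 FPKM in KO lungs with AP, against 235, 223, 233, 259.6 and 253 FPKM in WT lungs with AP. Among sham lungs it was at 305, 289, 292, 312 and 227 FPKM in KO lungs, against 243, 228, 239.6, 242 and 263 FPKM in WT lungs. Of the KO sham libraries, 4 lay above all WT sham libraries and 1 lay just below them. The log2 difference of Gprc5a was -0.07 ± 0.11 with AP, with a 95% interval of -0.30 to 0.16 (limma adjusted p = 0.619). It was 0.22 ± 0.11 after sham treatment (limma adjusted p = 0.0965), and 0.30 (0.0150) without KO sham library 5. On the TPM scale the sham value turned to -0.057.

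The KO sham lungs had the highest coefficient of variation of the 4 groups for Ager, Hopx, Pdpn, Clic5, Akap5 and Vegfa, and the KO lungs with AP for Aqp5, Emp2, Rtkn2 and Gprc5a. KO sham library 1 had the lowest value of its group for Ager, Hopx, Pdpn, Emp2, Rtkn2, Clic5 and Akap5, while its Aqp5 and Gprc5a were each the second highest of the group. The members summed to 1606 FPKM in the lowest KO sham library and to 4428 FPKM in the highest, against 2994 to 3646 FPKM in WT sham lungs. With AP the sums ran from 1684 to 2584 FPKM in KO and from 2936 to 3332 FPKM in WT, without overlap. The highest sum belonged to KO sham library 5, whose FPKM over all genes added up to 800442, against 548422 to 602739 in the other KO sham libraries, and in which the fewest genes, 21471, were above 0. As a share of the FPKM of their library the members took 0.267% to 0.58% in KO sham lungs, against 0.626% to 0.678% in WT sham lungs. With AP they took 0.265% to 0.456% in KO lungs, against 0.474% to 0.673% in WT lungs, so that by share neither pair of groups overlapped. KO AP library 3 and KO sham libraries 4 and 5 correlated least with their own groups, at 0.929, 0.938 and 0.936. Without these 3 libraries all 10 members changed between KO and WT after sham treatment, 2 higher and 8 lower, beside 63.3% of all genes. KO sham libraries 4 and 5 held the highest Ager, Hopx, Pdpn and Emp2 levels of their group, so leaving them out lowers the KO level of these genes. Ager was then at a log2 difference of -0.72 (limma adjusted p = 0.0304), Pdpn at -0.56 (0.00376) and Hopx at -0.44 (0.0385).

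No member changed between AP and sham within a genotype. In KO lungs 0 of 10 passed, beside 0.0125% of all genes, and 4 of 10 had an unadjusted p under 0.05, beside 14% of all genes. The 4 were Pdpn, with a log2 difference of -0.53 ± 0.19 (limma adjusted p = 0.240), Aqp5 at -0.42 ± 0.17 (0.294), Emp2 at -0.41 ± 0.18 (0.320) and Gprc5a at -0.30 ± 0.11 (0.256). Ager was at -0.65 ± 0.33, with a 95% interval of -1.33 to 0.04 (limma adjusted p = 0.385). In all of these KO with AP and KO sham libraries overlapped. Without KO sham library 1 both Pdpn (-0.74, adjusted p = 0.0367) and Ager (-1.02, adjusted p = 0.0480) passed. In WT lungs 0 of 10 passed, beside 0.0814% of all genes, and none had an unadjusted p under 0.05, beside 6.67% of all genes. The differences there ran from -0.43 ± 0.26 for Rtkn2 to 0.21 ± 0.17 for Aqp5, with adjusted p-values of 0.851 and 0.913. The Rtkn2 interval reached from -0.97 to 0.12, so a fall of moderate size could not be told from none.

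The AP response did not differ between the genotypes for any member by limma's test of the difference, beside 0% of all genes, and 1 of 10 had an unadjusted p under 0.05, beside 8.66% of all genes. That gene was Aqp5, with a difference of responses of -0.64 ± 0.25 (limma adjusted p = 0.523). Ager was at -0.61 ± 0.46 (0.676) and Rtkn2 at 0.54 ± 0.37 (0.654).

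The size of the genotype difference moved with transcript length. The 15879 tested lung genes with a known transcript length, 99.4% of those tested, were put into 5 classes of near equal size by length. With AP, the median log2 difference was 0.33 in the class of the shortest transcripts and then 0.28, 0.07, -0.16 and -0.37 toward the longest. After sham treatment it was 0.49, 0.34, 0.05, -0.22 and -0.49. The 5 members that were lower in KO under both treatments were also the 5 with the longest transcripts, from 3440 bases for Emp2 and 3451 for Vegfa over 3970 for Rtkn2 to 5862 for Clic5 and 6687 for Akap5. The other 5 had 1261 (Hopx), 1370 (Ager), 1797 (Aqp5), 1817 (Pdpn) and 2083 (Gprc5a) bases. All members but Aqp5 lay below the median of their own length class under both treatments. After each library was corrected for its trend on length, an alternative added after the data were seen, the log2 difference with AP was -1.63 for Emp2, -1.49 for Clic5 and -1.19 for Akap5. It was -0.73 for Rtkn2 and -0.62 for Vegfa, and these 5 still passed with AP. On the corrected values Ager (-1.14, limma adjusted p = 0.00601) and Hopx (-0.71, 0.00275) passed with AP, and Aqp5 (0.35, 0.0612) did not. After sham treatment Aqp5 was at 0.92 (limma adjusted p = 8.18e-05), Hopx at -0.76 (0.00179) and Pdpn at -0.54 (0.0204), and Vegfa (-0.55, 0.0526) no longer passed. What sets the length trend was not tested.

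**Figure D4:**
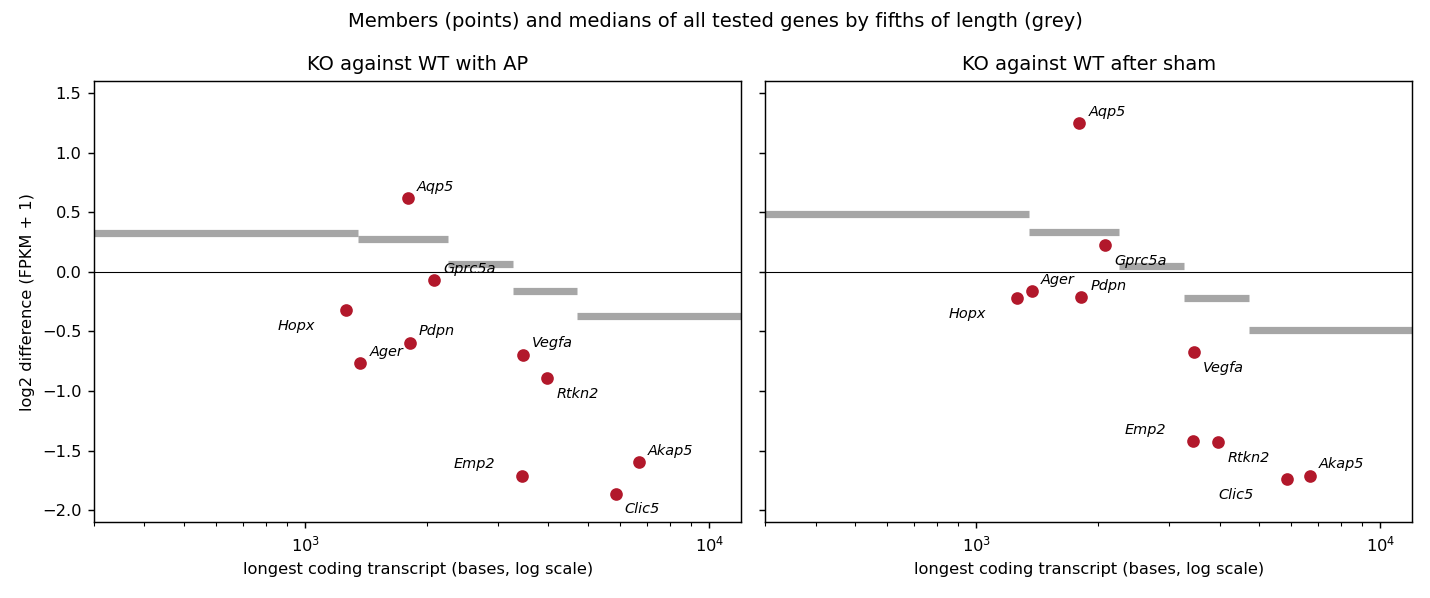
Log2 difference of KO against WT on the log2(FPKM + 1) scale for the 10 genes (red points) against the longest coding transcript in bases (log axis), with AP at left and after sham treatment at right; grey lines give the median of all tested genes in each of 5 length classes. The medians run from 0.33 to -0.37 with AP and from 0.49 to -0.49 after sham treatment, and Aqp5 is the member above the line of its class in both panels.

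Other genes of type 1 cells were mostly lower in KO as well. Beside the counts here and in the lists that follow, 27.6% of all lung genes were higher and 28.1% lower in KO with AP. After sham treatment these shares were 28.8% and 30%. Of 22 further type 1 genes, 16 were lower and 1 was higher in KO with AP, with a median log2 difference of -0.82, and 14 were lower and 2 higher after sham treatment, with a median of -0.80. Those with the lowest p encode basement membrane and matrix proteins. List genes, here and in the lists that follow, were not set against their length class. With AP the class medians of all genes ran from 0.33 in the shortest class to -0.37 in the longest. After sham treatment they ran from 0.49 to -0.49, so the part of transcript length in these list differences was not tested. Lama3, a laminin chain, was at -2.64 with AP and -2.55 after sham treatment. Col4a3 was at -2.47 and -2.42, Col4a4 at -1.23 and -1.33, and the protease inhibitor Timp3 at -1.28 and -1.55. Clic3, like Clic5 a member of the chloride intracellular channel family, was higher at 0.61 with AP and 0.67 after sham treatment. Of 12 regulators of alveolar cell fate, 4 were higher and 7 lower in KO with AP, and 0 and 7 after sham treatment. The Hippo coactivator Wwtr1 was at -1.61 with AP and -1.53 after sham treatment, its DNA-binding partner Tead1 at -1.04 and -1.10, and Notch2 at -1.14 and -1.34. The 4 that were higher with AP were Nkx2-1 at 0.75, Foxa1 at 0.58, Klf5 at 0.53 and Foxa2 at 0.51. None of these 4 passed after sham treatment, where Nkx2-1 was at 0.33 (limma adjusted p = 0.154).

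Genes listed for neighbouring epithelial states also differed between KO and WT lungs. Of 12 type 2 cell genes, 10 were lower and none higher in KO with AP, and 8 lower and none higher after sham treatment. The lipid transporter Abca3 was at -1.09 with AP and -1.31 after sham treatment, and the phosphate transporter Slc34a2 at -2.08 and -1.85. The surfactant gene Sftpb did not pass, at 0.00 with AP and -0.12 after sham treatment, nor did Sftpc, at -0.07 and 0.64. The summed type 2 level had a median of 36180 FPKM in KO sham lungs, against 25800 FPKM in WT sham lungs, with a range of 13990 to 83760 FPKM in KO sham lungs. Of 12 genes of the transitional state, 7 were higher and 1 lower with AP, and 10 higher and 1 lower after sham treatment. Among them the keratin Krt18 was at 1.29 with AP and 1.63 after sham treatment, Krt19 at 1.92 and 2.48, Sfn at 2.45 and 2.91, and Lgals3 at 2.27 and 3.21. Their summed level was 804.5 to 2478 FPKM in KO lungs with AP and 410.5 to 485 FPKM in WT lungs with AP, and 771 to 4300 FPKM in KO sham lungs and 487 to 637 FPKM in WT sham lungs. Of 10 general epithelial genes, 8 were higher and none lower in KO with AP, Cldn7 at 1.85 and Cldn3 at 1.37 among them, and 8 were higher and 1 lower after sham treatment. Krt8 and Krt18 are in both the general epithelial and the transitional list, so these counts are not separate. Whether cells changed state was not tested. Krt19 also marks mesothelium. Of its 6 genes, Krt19 included, 1 was higher and 1 lower in KO with AP, and 2 were higher and 0 lower after sham treatment. Wt1 (-0.01 with AP and -0.54 after sham treatment) and Upk3b (0.05 and 0.60) did not pass. The mesothelial gene Msln averaged 70.05 FPKM in KO sham lungs and 41.8 FPKM in WT sham lungs, with overlapping ranges. The part of these cells in the members' differences was not tested.

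**Figure D5:**
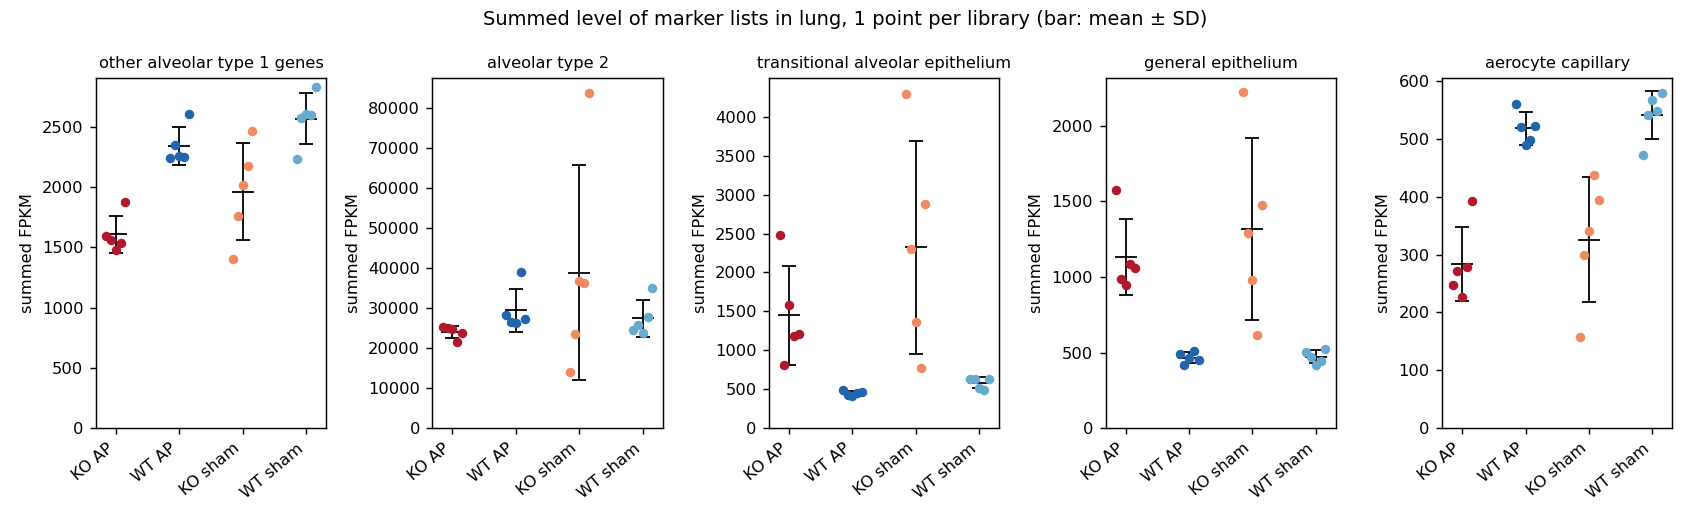
Summed FPKM of 5 marker lists in each lung library (1 point each, 5 per group; black bars, mean and SD) for KO AP, WT AP, KO sham and WT sham from left to right. With AP the type 1 and aerocyte sums lay lower, and the transitional and general epithelial sums higher, in every KO library than in every WT library.

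The partners of Vegfa and Ager were measured too. Of 9 VEGF family ligands, receptors and co-receptors, 7 were lower and 2 higher in KO with AP, and 6 were lower and 1 higher after sham treatment. The receptor gene Kdr was at -1.27 with AP and -1.42 after sham treatment, Flt1 at -1.62 and -1.70, Flt4 at -1.74 and -1.84, and the co-receptor Nrp2 at -0.91 and -0.95. Of 8 genes of aerocytes, the capillary cells that face type 1 cells, 6 were lower and none higher in KO with AP, and 4 lower and none higher after sham treatment. Ednrb was at -1.64 with AP and -2.15 after sham treatment. Kdr is in both the VEGF and the aerocyte list, and Flt4 in both the VEGF and the lymphatic list, so their counts are not separate. Of 10 genes of RAGE ligands and signalling, 4 were higher and 1 lower under each treatment, which is no larger a share than that of all lung genes (55.8% with AP and 58.8% after sham treatment). S100a6 was at 1.21 with AP and 2.05 after sham treatment, and Rela at 0.47 and 0.39. Vegfa is also a target of the hypoxia response, and among 13 tested genes of that response, Vegfa included, 4 were higher and 1 lower in KO with AP, the lower one being Vegfa. After sham treatment 5 were higher and 6 lower. Beside these counts, 55.8% of all lung genes changed with AP and 58.8% after sham treatment. The glycolytic genes Ldha (1.58 with AP and 1.56 after sham treatment) and Pgk1 (1.46 and 1.65) were higher under both treatments.

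In colon 7 of the 10 genes were expressed enough to be tested. Within each treatment every KO colon was sequenced more deeply than every WT colon. With AP the totals were 78.5 to 98.5 M reads in KO and 65.4 to 78.3 M reads in WT. After sham treatment they were 77.7 to 91.2 M reads in KO and 55.5 to 76.6 M reads in WT. Depth and genotype therefore cannot be told apart within a treatment in colon either. With AP 1 of 7 changed between KO and WT, beside 18.3% of all colon genes. Pdpn was at 3.96, 3.61, 3.63 and 5.81 FPKM in KO colons with AP, against 6.51, 6.14, 6.70, 5.95 and 7.94 FPKM in WT colons with AP. The groups did not overlap, and the log2 difference was -0.56 ± 0.17 (limma adjusted p = 0.0290). The call was lost when any of WT AP libraries 3 and 5 and KO AP libraries 3 and 4 was left out, with adjusted p-values of 0.0568, 0.0700, 0.0826 and 0.0745 in that order. After sham treatment 3 of 7 changed, beside 31.4% of all colon genes. Clic5 was at -0.78 ± 0.21 (limma adjusted p = 0.0104) and Emp2 at -0.75 ± 0.21 (0.0120), both lower in KO as in lung. The median log2 difference of colon genes after sham treatment was 0.23 in the class of the shortest transcripts and -0.28 in that of the longest. With the length trend removed the colon difference of Clic5 was -0.51 and no longer passed (0.0822). Hopx was higher at 0.46 ± 0.17 (0.0458), a call that was lost when any 1 of 12 of the 19 libraries was left out, and on the TPM scale (0.29, 0.346). Between AP and sham 0 of 7 passed in KO colon, beside 0.04% of all genes, and 0 of 7 in WT colon, beside 0% of all genes. At an unadjusted p under 0.05, 1 of 7 passed in KO colon and none in WT colon, beside 18.7% and 6.25% of all genes. No member passed limma's test of the difference of these responses, where 1 of 7, and 18.8% of all genes, had an unadjusted p under 0.05.

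For 3 members the genes with the most similar course over the 20 lung libraries were sought, by the root mean square distance of centred log2(FPKM + 1) values. Nearest to Ager were Tspan8 at 0.269, Napsa at 0.274, Ifitm10 at 0.275, Gpihbp1 at 0.276 and Tgfb1 at 0.281, where the median gene lay at 0.671 and Ager's own deviation was 0.586. Nearest to Hopx were Npr2 at 0.153, Hsd17b11 at 0.166, Ctdspl at 0.169, Abca8b at 0.171 and Pdlim2 at 0.174, with a median gene at 0.461. Hopx's own deviation was only 0.2935. Nearest to Vegfa were Tmem44 at 0.176, Dgka at 0.186, Meis1 at 0.201, Klhl20 at 0.202 and Prr12 at 0.205, with a median gene at 0.589. Vegfa's own deviation was 0.501. These distances describe the same libraries that differ in depth and genotype.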

How the data were processed

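mRNA-enriched mouse RNA was sequenced in lung (20 libraries) and colon (19 libraries). The values deposited by the authors are FPKM, 1 table per tissue. Per the submitters' processing notes, HISAT2 2.1.0, StringTie 1.3.3b and mm39 were used; what each did is not said, so no coordinates were taken from the files. Upstream sequences and transcript lengths came from RefSeq (GRCm38.p6) and GENCODE M21. A gene was tested in a tissue when 4 or more libraries reached 1 FPKM, with limma 3.58.1 in R 4.3.3 on log2(FPKM + 1), which understates changes of low genes, with 1 mean per group, a variance trend and Benjamini-Hochberg adjustment over all genes tested. The fit was tested on simulated data. Read totals were recovered from the FPKM steps of single-transcript genes, 98.8% to 99.4% of which came out whole within 0.05 read. Members and lists were chosen with earlier results of these data known. Every member enters every lung comparison, with all values for KO against WT and, for AP against sham, those with an unadjusted p under 0.05 or the widest differences; from each other list up to 4 genes with the lowest p are named, and genes named beyond that (Clic3, Nkx2-1, Sftpb, Sftpc, Wt1 and Upk3b among them) were chosen after their values were seen. 0 pairs of libraries were identical.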

Additional observations from a re-analysis of the deposited data

Results flagged for a closer look

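Each of the 10 genes tested in lung and the 7 tested in colon had 4 groups of 4 or 5 libraries, and 7 of these 68 groups held a value whose gap to its neighbour was an unusually large part of the group's range. Chance alone flags about 1 in 20 groups. In lung the values were Aqp5 at 321 FPKM in KO AP library 1 (next 194), Emp2 at 267 FPKM in WT AP library 4 (next 349) and Gprc5a at 227 FPKM in KO sham library 5 (next 289). Aqp5 stood at 147 FPKM in WT sham library 5 (next 118), and Rtkn2 at 68.4 FPKM in WT sham library 1 (next 89.6). In colon they were Pdpn at 5.81 FPKM in KO AP library 5 (next 3.96) and Emp2 at 15.9 FPKM in WT sham library 2 (next 25.1).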

How the results depend on the processing

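The count of changed lung members in KO against WT with AP stayed between 6 and 9 under all alternatives run, and after sham treatment between 5 and 8, except for 10 without KO AP library 3 and KO sham libraries 4 and 5. With 1 library left out these counts were 6 to 8 and 5 to 6. For AP against sham in KO the count was 0 to 2 with 1 library left out, and in WT it was 0. In colon the count for KO against WT with AP was 0 without a filter on low values, 0 with a variance for each group and 0 to 1 with 1 library left out. Same-numbered lung libraries deviated from their group means with correlations of -0.32 to 0.386, over 0.1 in 6 of 30 pairs. Only 3 of 20 libraries correlated best with their own number. No pairing by number was seen, but this check cannot exclude a shared day or batch. With the replicate block the lung counts were 8 with AP and 6 after sham treatment, where Ager joined the calls; in colon Hopx was lost after sham treatment (adjusted p = 0.0630), and no other member's call in KO against WT changed with the block.

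Over all lung genes, AP against sham in KO called 2 genes in the reported fit and 0 to 31 in the others, and 1 to 229 with 1 library left out. In WT it called 13, but 394 with a variance for each group, 110 with only the groups compared, 35 without the 3 libraries, 8 with the block, 3 on the TPM scale without mitochondrial genes, 1 on the TPM scale, 1 without a filter and 0 to 20 with 1 library left out. The difference of the responses called 0, with 0 to 1 in the others and 0 to 2 with 1 library left out. In colon AP against sham in KO called 6, with 0 to 7 in the others and 0 to 1374 with 1 library left out, and the difference of the responses called 0, with 0 to 2 and 0 to 1170.

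Directions turned for the following differences and for no other member in the comparisons run. KO against WT after sham treatment turned for Gprc5a on the TPM scale (-0.057), on it without mitochondrial genes (-0.049) and with the length trend removed (-0.010), and Ager ran from -0.47 to 0.22 with 1 library left out. AP against sham in KO turned for Akap5 without mitochondrial genes (0.034), by upper quartile (0.019) and without the 3 libraries (0.35), and for Hopx (0.14) and Clic5 (0.0036) without the 3 libraries. With 1 library left out it ran from -0.15 to 0.27 for Rtkn2, from -0.26 to 0.20 for Akap5 and from -0.078 to 0.31 for Vegfa. AP against sham in WT turned for Gprc5a by upper quartile (0.021) and Clic5 with the length trend removed (0.018), and ran from -0.078 to 0.027 for Ager, -0.14 to 0.046 for Clic5 and -0.041 to 0.015 for Gprc5a. The difference of responses turned for Vegfa (TPM 0.050, without mitochondrial genes 0.068, without the 3 libraries 0.13), for Hopx (length 0.041, without the 3 libraries 0.20), for Akap5 (length -0.0011) and for Clic5 (without the 3 libraries 0.071). Left-out libraries gave -0.28 to 0.019 for Hopx, -0.34 to 0.032 for Clic5, -0.13 to 0.33 for Akap5 and -0.18 to 0.21 for Vegfa. In colon, KO against WT turned for Vegfa with AP (TPM -0.010) and after sham treatment (TPM -0.14, without mitochondrial genes -0.15, upper quartile -0.045) and for Ager after sham treatment with the length trend removed (-0.12). Left-out libraries gave -0.081 to 0.21 for Vegfa with AP, and after sham treatment -0.089 to 0.12 for Vegfa and -0.12 to 0.11 for Gprc5a. The cause of these changes was not tested. FPKM carry no counts, so no interval for counting error is given.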

Other observations

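Ratios of members within a library, chosen after their values were seen and given without a test, separated the genotypes. The FPKM of Aqp5 over that of Emp2 ran from 1.3 to 2.99 in KO lungs with AP (median 2.22), against 0.291 to 0.708 in WT lungs with AP (median 0.371). After sham treatment it ran from 1.57 to 2.89 in KO lungs (median 1.88), against 0.298 to 0.353 in WT lungs (median 0.321). The ratio of Ager over Clic5 ran from 12.5 to 22.8 in KO lungs with AP and 15.1 to 48.6 in KO sham lungs, against 7.01 to 9.08 in WT lungs with AP and 6.31 to 9.41 in WT sham lungs. Hopx over Clic5 ran from 7.04 to 14.3 in KO lungs with AP and 7.81 to 13.4 in KO sham lungs, against 3.03 to 5.92 in WT lungs with AP and 2.97 to 4.33 in WT sham lungs. In each of the 3 ratios the member with the longer transcript is the denominator.

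With AP the sums of adipocyte and of mesothelial genes varied more between KO than between WT libraries. Summed adipocyte genes reached 1938 FPKM in 1 KO lung with AP, where the group's median was 9.20 FPKM, against 34.6 to 77.9 FPKM in WT lungs with AP. After sham treatment the adipocyte sum ran from 9.04 to 39.3 FPKM in KO and from 17.95 to 71.6 FPKM in WT. Summed mesothelial genes ran from 318 to 679 FPKM in KO lungs with AP, against 156 to 192 FPKM in WT lungs with AP, and from 343 to 1088 FPKM in KO sham lungs, against 149 to 274 FPKM in WT sham lungs. Most of this sum was Krt19, which is also a gene of the transitional list. The other 5 genes summed to 42.9 to 174 FPKM in KO lungs with AP, against 56.3 to 90.5 FPKM in WT lungs with AP, and to 83.4 to 146 FPKM in KO sham lungs, against 62.8 to 147 FPKM in WT sham lungs. Of the 6 mesothelial genes 1 was higher and 1 lower with AP, with a median log2 difference of 0.02, and 2 were higher and 0 lower after sham treatment, with a median of 0.22. The general endothelial list had 4 of 8 genes lower and 1 higher in KO under each treatment, the lymphatic list 5 and 4 of 6 tested genes lower with AP and after sham treatment, and no adipocyte gene changed. Of 9 heart muscle genes 1 was higher and 1 lower with AP, and 0 and 1 after sham treatment. Of 10 club and ciliated cell genes 5 were higher and 1 lower with AP, and 2 and 3 after sham treatment. Of 13 mitochondrially encoded genes 1 was higher and 0 lower with AP, and 1 and 1 after sham treatment. Beside all these counts, 55.8% of all lung genes changed with AP and 58.8% after sham treatment. The counts of the general endothelial list and of the club and ciliated list were near these shares.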
